A study of Drosophila melanogaster with 3 samples.

Results

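The nuclear genes of oxidative phosphorylation were examined for binding of CG32006-GFP at their promoters in whole Drosophila melanogaster prepupae. A gene was a member when it was protein-coding and its Ensembl symbol began with ND-, COX and a digit, ATPsyn or UQCR-, or was SdhA, SdhB, SdhC, SdhD, Cyt-c-p, Cyt-c1 or RFeSP. This rule gave 87 of the 13945 protein-coding genes on the 6 chromosome arms. No measured value entered the rule, but the set was chosen with earlier results of these data known. The data were 3 biological replicates of 1 group, with no second condition. The animals were of both sexes, pooled, from a transgenic line in which GFP was fused to the C-terminal end of CG32006, and GFP was the target of the pull-down antibody. Chromatin had been sonicated to 200 to 800 bp. An age of 48 days stands in the labels and cannot be that of a prepupa, so only the stage name is used here. Whole animals mix every tissue, so a peak does not show in which cells binding took place, and binding does not show whether a gene was expressed.

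The authors deposited an optimal list of 11665 peaks made from all replicates by comparing their ranks (irreproducible discovery rate), and lists of 30000 peaks and background regions for each replicate and for the pooled replicates. Each peak carries a signal value on an unstated scale, which ran from 197 to 10303 in the optimal list and is used here only to rank peaks within a list. In the optimal list the rank counts from the strongest peak. A gene was called bound when the summit of an optimal peak lay within 500 bp of one of its annotated transcription start sites (TSS). A replicate's list of its 11665 strongest regions was used to ask whether a promoter peak recurred. Regions with a −log10 q of at least 2 numbered 14910 in replicate 1, 9587 in replicate 2 and 17614 in replicate 3. The 11665 strongest regions of replicate 2 therefore include some with a lower −log10 q. No region had identical values in a pair of replicates (0 shared rows in each pair). The read depth is unknown, so the intervals below cover counting error over genes only.

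Oxidative phosphorylation takes place at the inner mitochondrial membrane. Complexes I and II pass electrons from NADH and succinate to ubiquinone, complex III passes them on to the mobile carrier cytochrome c, and complex IV (cytochrome c oxidase) passes them to oxygen. Complex V, the ATP synthase, uses the proton gradient that complexes I, III and IV build to make ATP. Most subunits are encoded in the nucleus and a few core subunits in the mitochondrial genome, so the nuclear genes are under the control of nuclear transcription factors. Flies also carry duplicated copies of many of these genes, several of which are known for expression in the male germline. CG32006 is listed in RefSeq with the synonym FoxJ1, a forkhead family name. In vertebrates FoxJ1 factors are known for the control of genes of motile cilia.

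The DNA at the 5 bound promoters printed here was rich in A and T. The sequences below are shown because they carry 5 of the 6 strongest member peaks, that at ND-MWFE not being printed, and because 4 of them are the whole stretch between the start of the member and that of the gene transcribed away from it. They are in the Release 6 genome (dm6, RefSeq), 5′ to 3′ on the strand of the member, and capitals mark the 21 bases centred on the summit. For ND-ASHI a window of 101 bases around the summit is given (chrX:6679320-6679420, minus strand), inside an intron of Fum1. The stretches between starts run from CG13994 to ND-51 (chr2L:6062758-6062988, minus strand), from RhoGAP68F to ND-SGDH (chr3L:12138585-12138867, minus strand), from Sec13 to ATPsynCF6 (chr3R:23356065-23356277, minus strand) and from Sec3 to COX7B (chr3L:17425218-17425476, plus strand). For ATPsynCF6 the summit lay 2 bp from the start of Sec13, so only 12 bases are in capitals.
ND-ASHI: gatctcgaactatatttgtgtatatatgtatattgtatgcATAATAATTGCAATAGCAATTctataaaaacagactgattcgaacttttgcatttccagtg
ND-51: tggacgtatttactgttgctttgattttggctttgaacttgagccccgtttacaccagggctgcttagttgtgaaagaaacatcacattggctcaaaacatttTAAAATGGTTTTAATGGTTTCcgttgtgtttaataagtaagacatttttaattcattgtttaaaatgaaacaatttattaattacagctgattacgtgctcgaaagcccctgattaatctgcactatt
ND-SGDH: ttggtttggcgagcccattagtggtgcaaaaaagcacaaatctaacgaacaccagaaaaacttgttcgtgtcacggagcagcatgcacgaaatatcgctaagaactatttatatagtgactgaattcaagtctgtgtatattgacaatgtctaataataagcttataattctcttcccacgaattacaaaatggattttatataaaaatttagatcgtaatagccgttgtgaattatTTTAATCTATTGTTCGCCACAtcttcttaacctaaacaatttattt
ATPsynCF6: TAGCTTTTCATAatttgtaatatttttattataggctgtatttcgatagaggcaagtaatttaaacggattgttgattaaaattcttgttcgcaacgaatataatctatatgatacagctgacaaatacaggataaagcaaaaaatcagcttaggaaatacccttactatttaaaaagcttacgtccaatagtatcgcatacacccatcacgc
COX7B: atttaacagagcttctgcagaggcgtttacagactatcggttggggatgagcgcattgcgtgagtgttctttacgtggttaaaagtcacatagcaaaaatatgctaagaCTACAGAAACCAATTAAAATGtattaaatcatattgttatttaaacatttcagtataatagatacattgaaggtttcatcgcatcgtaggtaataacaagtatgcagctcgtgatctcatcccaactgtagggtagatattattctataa
The GC content of these 5 sequences was 28.7% for ND-ASHI, 33.8% for ND-51, 32.9% for ND-SGDH, 31.0% for ATPsynCF6 and 35.1% for COX7B. The value for ND-ASHI is that of a summit window and the others are those of whole stretches. In summit windows of 101 bp, the weaker COX5B, Cyt-c1, ND-MNLL and COX7AL2 had 40.6%, 36.6%, 37.6% and 41.6%. The mean of all promoter-proximal summits was 34.0%.

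Few oxidative phosphorylation genes were bound. A promoter peak was found at 10 of the 87 members (11.5%, Wilson 95% interval 6.36 to 19.9%), beside 2659 of all 13945 protein-coding genes (19.1%). The members' interval includes the share of all genes, so in the optimal list at 500 bp the lower share is within the counting error of a group of this size. In the replicates' own lists, 11, 12 and 14 members were bound in replicates 1, 2 and 3 (12.6%, 13.8% and 16.1%). The shares of all genes in the same lists were 20.5%, 18.2% and 21.9%. The mean over replicates was 14.2% ± 1.76 for the members and 20.2% ± 1.90 for all genes (SD, n = 3 each), and the members' share was the lower in each of the 3 lists.

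The bound members were spread over the complexes. Complex I had 5 of 40 genes bound (12.5%, 5.46 to 26.1%), namely ND-ASHI, ND-MWFE, ND-51, ND-SGDH and ND-MNLL. Complex III had 1 of 11 (9.09%, 1.62 to 37.7%), Cyt-c1. Complex IV had 3 of 16 (18.8%, 6.59 to 43.0%), COX7B, COX5B and COX7AL2. Complex V had 1 of 15 (6.67%, 1.19 to 29.8%), ATPsynCF6. Complex II had 0 of its 4 genes bound (Wilson interval up to 49.0%, and up to 75.0% by the wider limit of 3 counts), and the single gene for the mobile carrier, Cyt-c-p, was not bound. These intervals overlap each other and that of the whole set, so no complex stood apart at these numbers. By chromosome the bound members were 3 of 18 on 2L, 1 of 17 on 2R, 3 of 20 on 3L, 1 of 18 on 3R, 0 of 2 on 4 and 2 of 12 on X. The share of all genes on each arm was not counted, so these numbers set no arm apart.

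**Figure D1:**
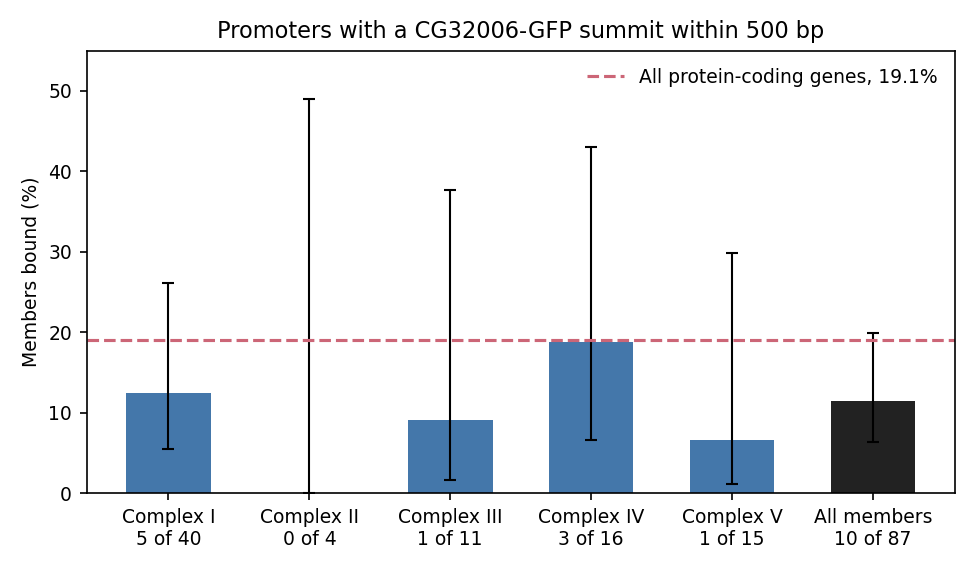
Share of oxidative phosphorylation genes with an optimal summit within 500 bp of a TSS, by complex and for all 87 members. The vertical axis is the percentage of members bound, bars give the share, whiskers the Wilson 95% interval, and the dashed line the 19.1% of all protein-coding genes. Cyt-c-p, not bound, enters only the bar for all members, and the whiskers of every complex cross the dashed line.

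Complex I held the strongest promoter peaks of the set. ND-ASHI, which encodes an accessory subunit, had an optimal signal of 2677, rank 393 of 11665 and above 92.2% of promoter-proximal summits. Its signals in the replicates' own lists were 732, 1010 and 927 in replicates 1, 2 and 3, at ranks 448, 341 and 452. The 3 libraries thus placed it within their strongest regions at similar ranks. ND-MWFE, another accessory subunit gene, had a signal of 1614 (rank 1087, above 83.2% of promoter-proximal summits). Its replicate signals were 443, 700 and 456, at ranks 1228, 725 and 1686. ND-51 encodes the core subunit that binds FMN and takes electrons from NADH, and it was the only one of the 5 bound complex I genes that encodes a core subunit. Its optimal signal was 819 (rank 3011), with replicate signals of 237, 296 and 269 at ranks 3072, 2861 and 3509.

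The other bound complex I genes encode accessory subunits and had weaker peaks. ND-SGDH had a signal of 664 (rank 3842), with 192, 242 and 233 in replicates 1, 2 and 3 at ranks 3975, 3685 and 4157. ND-MNLL had a signal of 215 (rank 10911), above only 5.01% of promoter-proximal summits. It was within the strongest 11665 regions of replicates 1 and 3 (ranks 11133 and 10215) and outside them in replicate 2 (rank 14677). Its promoter call therefore lies near the end of the optimal list.

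In complex V, ATPsynCF6 encodes coupling factor 6, a part of the stalk that holds the catalytic head of the ATP synthase in place. Its optimal signal was 490 (rank 5270), and its replicate signals were 113, 177 and 199 at ranks 6993, 5143 and 4911. COX7B, a small complex IV subunit gene, had a signal of 413 (rank 6258) and replicate signals of 88.2, 176 and 172 at ranks 8742, 5168 and 5761. Both genes were in the lists of all 3 replicates, and in both the rank was poorest in replicate 1.

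The remaining bound genes of complexes III and IV had peaks among the weakest of the optimal list. COX5B, a nuclear complex IV subunit gene, had a signal of 247 (rank 9743), and its ranks were 12151, 8120 and 11481 in replicates 1, 2 and 3. Cyt-c1 encodes cytochrome c1, the haem subunit of complex III that hands electrons to cytochrome c. It had a signal of 234 (rank 10166), and ranks of 20576, 12395 and 10844 placed it within the strongest 11665 regions of replicate 3 only. COX7AL2, a duplicated copy of the complex IV gene COX7A, had the weakest call, a signal of 203 (rank 11358). The strongest region within 500 bp of its TSS had rank 4028 in replicate 1, 11450 in replicate 2 and 16221 in replicate 3. The region of replicate 2 had a −log10 q of 1.40, below 2. The region of replicate 1 lay 495 bp from a TSS, whereas those of replicates 2 and 3 lay 319 and 317 bp away and the optimal summit 331 bp away. The replicate 1 region may thus be a different peak, and its recurrence there is uncertain.

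The median optimal signal of the 10 member promoters was 451, beside 541 for all 2676 promoter-proximal summits. Of the 10, 5 were in the strongest 50% of the optimal list, beside 59.0% of all promoter-proximal summits. All 10 promoters also had a region within 500 bp among the 30000 listed in each replicate. Those lists include background regions, and some of these regions had a low −log10 q. It was 0.90 at Cyt-c1 in replicate 1 and 0.80 at ND-MNLL in replicate 2. A listed region therefore does not show that a peak was present in each replicate.

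**Figure D2:**
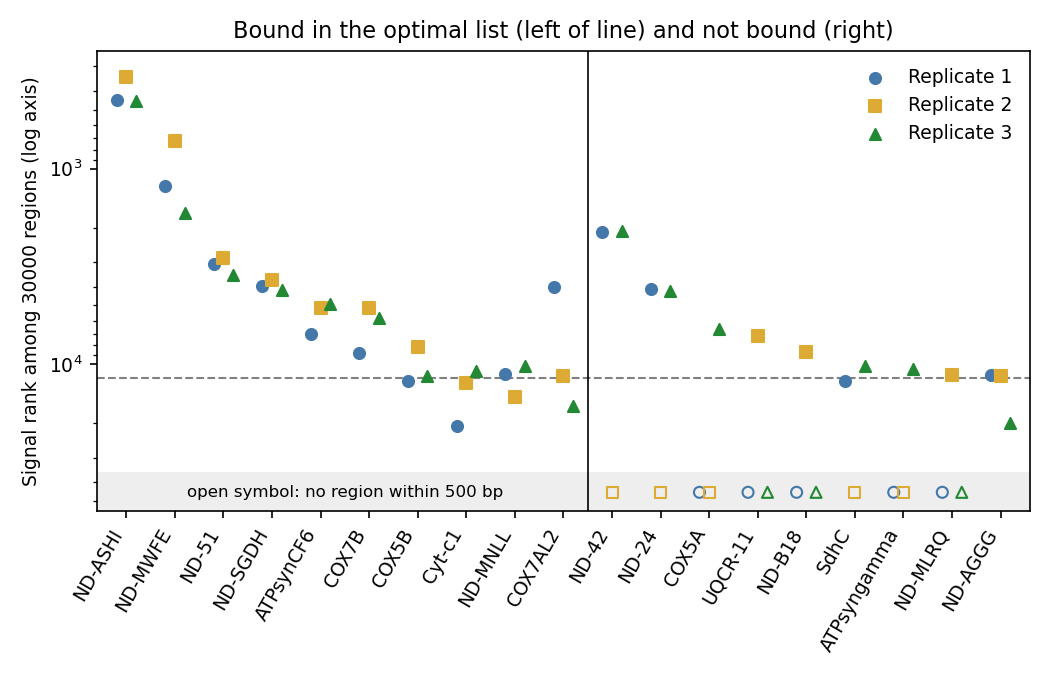
Rank of the strongest region within 500 bp of a TSS in each replicate's own list of 30000 (log axis, strongest at the top), for the 10 bound members and the 9 unbound members that were in at least 1 replicate list. Points are single replicates, open symbols in the grey band mark replicates with no such region, and the dashed line is rank 11665. The 6 strongest bound members lie above the line in all 3 replicates, whereas ND-42 and ND-24 lie above it in replicates 1 and 3 and have no region in replicate 2.

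Of the 10 bound members, 6 were in all 3 replicate lists, 3 in 2 lists and 1 in 1 list. Of all 2659 bound genes, 2012 were in 3 lists (75.7%), 493 in 2 (18.5%), 133 in 1 and 21 in 0. Counted over the whole set and without the optimal list, 6 of 87 members (6.90%, 3.20 to 14.2%) were in all 3 replicate lists, beside 14.6% of all genes, and 19 (21.8%, 14.5 to 31.6%) in at least 1, beside 25.8%. In the pooled list of 30000 regions 14 members (16.1%, 9.83 to 25.2%) had a promoter region, beside 28.4% of all genes. The members' intervals lie below the share of all genes for the pooled list and for all 3 replicate lists together, and include it for the optimal list and for at least 1 list. The optimal list was made from the same reads, so recurrence in the replicate lists is not an independent check.

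Most bound members shared their peak with another gene. For 9 of the 10 the summit also lay within 500 bp of a TSS of another protein-coding gene, beside 44.2% of all bound genes. In each of these 9 it lay between the TSS of the member and that of a gene on the opposite strand, a divergent pair. For 6 of the 10 another gene had the nearest TSS, so these peaks cannot be assigned to the member alone. When a gene's own TSS had to be nearest to the summit, 4 of the 10 members kept their call. Of all 2659 bound genes, 2179 kept theirs under the same rule. The exception without a partner was COX7AL2, whose summit lay 331 bp downstream of a TSS, in the 5′ UTR of the gene itself.

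The partners had varied functions. At ND-ASHI the summit lay 252 bp upstream of the member and 270 bp from a TSS of Fum1, which encodes fumarase of the TCA cycle. At ND-MWFE it lay 169 bp upstream and 52 bp from TppII, a gene for a tripeptidyl peptidase, and at ND-51 118 bp upstream and 114 bp from CG13994. At ND-SGDH it lay 36 bp upstream and 248 bp from RhoGAP68F, which encodes a GTPase activator. Fum1 was the single partner from a mitochondrial metabolic pathway among the genes named here with a known role.

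The ATPsynCF6 summit lay 212 bp upstream of the member and 2 bp from Sec13, a gene for a component of COPII coats and nuclear pores. The COX7B summit lay 140 bp upstream and 120 bp from Sec3, a subunit gene of the exocyst that tethers vesicles. At ND-MNLL the summit lay 43 bp upstream, 43 bp from CG45089, which starts at the same base on the same strand, and 190 bp from p115, which encodes a Golgi tethering protein. The peaks at COX5B and Cyt-c1 were the weakest of those with a divergent partner, other than that at ND-MNLL. The COX5B summit lay 227 bp upstream and 71 bp from IFT52, an intraflagellar transport gene. The Cyt-c1 summit lay 440 bp upstream and 379 bp from Klp64D, a kinesin-2 motor subunit gene, across the widest gap of the set, 819 bp between the starts.

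Divergent pairs were common among the members as a whole. With a partner defined as an opposite-strand protein-coding TSS up to 1000 bp upstream, 44 of 87 members had one (50.6%), beside 36.2% of all genes. Among bound members the share was 9 of 10 (90.0%), among unbound members 35 of 77 (45.5%) and among all bound genes 51.8%. Of the 44 members with a partner 9 were bound (20.5%, 11.2 to 34.5%), beside 27.3% of all genes with a partner. Of the 43 without one only COX7AL2 was bound (2.33%, 0.412 to 12.1%), beside 14.4% of all genes without a partner.

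The members are short genes, and the number of start sites also moved with the calls. Their median length was 1100 bp, beside 2166 bp for all protein-coding genes and 4146 bp for all bound genes. Of the 52 members with 1 annotated TSS 4 were bound (7.69%, 3.03 to 18.2%), beside 12.8% of all such genes. Of the 35 with 2 or more TSS 6 were bound (17.1%, 8.10 to 32.7%), beside 36.5%. The members' share was the lower in both classes. Genes with 1 annotated TSS made up 59.8% of the members, beside 73.5% of all genes, so the class with the higher share bound was the larger among members. The part of gene length and of start sites in the difference was not tested.

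Peaks inside the genes themselves were few. A summit lay between the start and end of 4 members (4.60%, 1.80 to 11.2%), beside 17.1% of all genes. The members' median length was 1100 bp, beside 2166 bp for all genes, and the part of length in this difference was not tested. Cyt-c-p, not called bound, had an intronic summit with a signal of 2339 (rank 528), 939 bp from its nearest TSS. ND-39, a complex I accessory subunit gene, had summits of 1522 and 437 in an intron, 1584 and 911 bp from its TSS, where ZnT77C also lies. COX7AL2 had 4 summits, of which the strongest, 655, lay 535 bp from a TSS and so just outside the limit, while the one that made the call had 203. ND-15 is annotated over 41305 bp that also hold CG4822 and CG3164, and its 4 summits, with signals from 258 to 805, lay 6607 to 20085 bp from its start.

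By nearest summit, the members just inside the distance limit were Cyt-c1 (440 bp), COX7AL2 (331 bp) and ND-ASHI (252 bp). The members with the nearest summits just outside it were ND-75 (759 bp, signal 1677), ATPsynE (785 bp, signal 796) and Cyt-c-p (827 bp upstream, signal 273, in an intron of Cyt-c-d). ND-75 encodes the large iron-sulphur subunit of complex I and ATPsynE the e subunit of complex V. At ND-75 the summit was closer to CG1632 (224 bp) and at ATPsynE to spn-B (198 bp).

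At larger distances the members came level with all genes. Within 200 bp, 5 members (5.75%) had a summit, beside 11.1% of all genes, and within 1000 bp 15 (17.2%), beside 23.8%. Within 2000 bp 25 had one (28.7%), beside 30.8%, and within 5000 bp 42 (48.3%), beside 47.7%. The median distance from a gene to its nearest summit was 5618 bp for the members and 5514 bp for all genes. The members' share was thus the lower at 200, 500, 1000 and 2000 bp and level with that of all genes at 5000 bp. Among the peaks farther off, one of the strongest of the whole list (signal 5537, rank 40) lay 2396 bp from the TSS of SdhD, a membrane anchor subunit gene of complex II. At the other end, the nearest optimal summit was 1036377 bp from ND-AGGG, 891882 bp from UQCR-11 and 429180 bp from ND-MLRQ. Each of these genes nevertheless had a promoter region in at least 1 replicate list, given below.

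**Figure D3:**
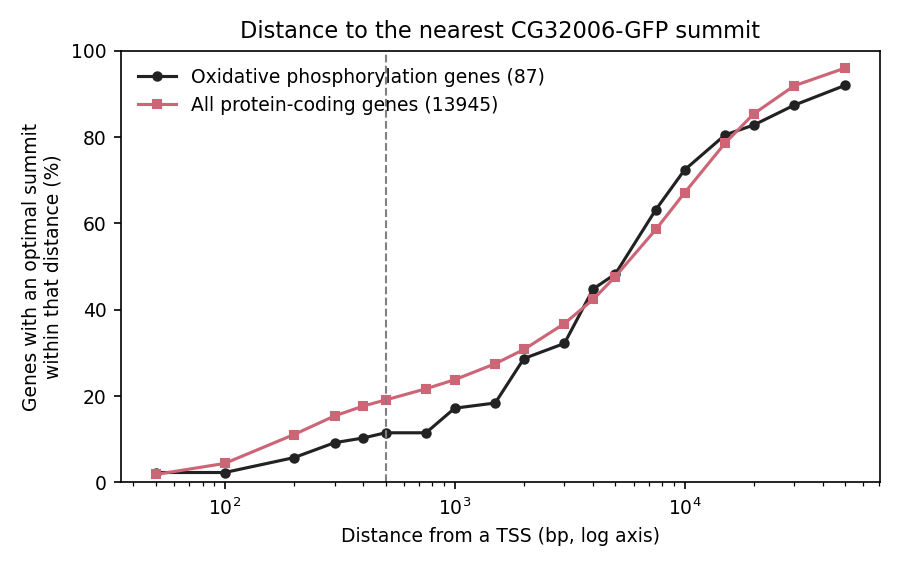
Cumulative share of genes (vertical axis, percent) with an optimal summit within a given distance of a TSS (horizontal axis, bp, log scale), for the 87 oxidative phosphorylation genes and all 13945 protein-coding genes. The dashed line marks 500 bp, where the shares are 11.5% and 19.1%. At 5000 bp they are 48.3% and 47.7%.

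Among the 77 unbound members, 0 were in all 3 replicate lists, 3 were in 2 lists, 6 in 1 and 68 in none. Over all genes, 2036 were in all 3 replicate lists, 2012 of them bound in the optimal list. At least 1 list held 3604 genes, and only 21 of the 2659 bound genes were in none. No share of all unbound genes was set beside the members' counts, so these numbers are not read as a trait of the members. Bound or not, 21.8% of members were in at least 1 list, beside 25.8% of all genes. ND-42, a complex I accessory subunit gene, had ranks of 2106 in replicate 1 (signal 315) and 2080 in replicate 3 (signal 396), and no region within 500 bp in replicate 2 or in the pooled list. ND-24, which encodes a core iron-sulphur subunit, had ranks of 4115 (signal 186) and 4206 (signal 230) in the same replicates and again none in replicate 2 or the pooled list. These are stronger ranks than those of several bound members, in libraries that were deposited as replicates. The third gene, ND-AGGG, had ranks of 11351, 11469 and 19908 in replicates 1, 2 and 3 and rank 12807 in the pooled list. Its region in replicate 2 had a −log10 q of 1.39.

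The 6 unbound members in a single list were ND-B18, ND-MLRQ and UQCR-11 in replicate 2, at ranks 8649, 11331 and 7121, and ATPsyngamma, COX5A and SdhC in replicate 3, at ranks 10582, 6578 and 10246. The ND-MLRQ region had a −log10 q of 1.44, below 2. ATPsyngamma encodes the rotating central stalk of the ATP synthase and SdhC a membrane anchor of complex II. At any rank, 23 of the 77 had a promoter region in some replicate's 30000, and 4 in the pooled 30000 (COX7C, ND-20L, ND-AGGG and SdhD, at pooled ranks 15937, 28678, 12807 and 18908). The other 53 unbound members had no promoter region in any list. For these counts too, the share of all unbound genes was not determined.

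The duplicated copies had few promoter calls. Of 14 genes whose symbol ends in L after the symbol of another member, 0 were bound, which allows a share of up to 21.4% by the limit of 3 counts. In the replicate lists there were 0, beside 25.8% of all genes in at least 1 list. Weaker regions were listed at some of the 14, as at UQCR-6.4L in replicates 1 and 2 (ranks 13250 and 13758). With 7 further like-paralogues added by hand after the values were seen, 1 of 21 was bound, COX7AL2. Of the other 66 members 9 were bound and 18 were in at least 1 replicate list. A set of this size cannot show a difference from the 19.1% of all genes, since the limit for 0 of 14 lies above it.

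Summits at the bound members lay in a dip of GC content. The 10 summit windows of 101 bp averaged 31.0% GC, and windows centred 500 bp away on both sides averaged 51.9%, which makes a difference of -20.9 percentage points. It was lower at the summit in 10 of 10 members. For all 2676 promoter-proximal summits the mean was 34.0% at the summit and 44.4% in the flanks, a difference of -10.4 points, and lower at 78.9% of summits. At members bound in each replicate's own list the difference was -23.4, -13.0 and -22.9 points in replicates 1, 2 and 3, with a mean of -19.8 ± 5.87 (SD, n = 3). The member flanks were the richer in GC by more than the summits were the poorer. In windows of 51 bp the mean at the summit was 34.1% for the members and 33.9% for all promoter-proximal summits. Of the members' summits 9 of 10 lay within 500 bp of 2 or more genes, beside 24.1% of all promoter-proximal summits. The part of gene pairs in the GC difference was not tested. The dip ranged from -33.2 points at ND-51 and -30.7 at ND-ASHI to -1.98 at COX5B, where the summit window had 40.6% and its flanks 42.6%.

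**Figure D4:**
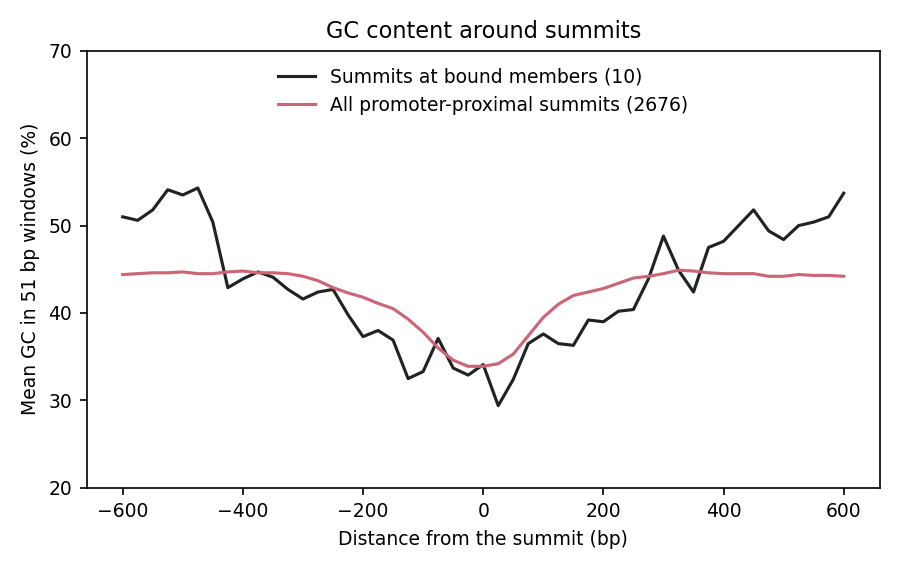
Mean GC content (vertical axis, percent, windows of 51 bp) by distance from the summit (horizontal axis, bp, genome orientation) for the 10 summits at bound members and all 2676 promoter-proximal summits. Both curves fall towards the summit. The members' curve is less smooth because it averages 10 windows.

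The promoters of bound and unbound members had like base composition. In the 300 bases from 250 before to 50 after the start, GC content averaged 34.8% ± 4.54 in the 10 bound members, 35.2% ± 6.74 in the 77 unbound members, 39.4% ± 7.49 in all bound genes and 39.1% ± 7.74 in all protein-coding genes (SD over genes). Both classes of members were thus poorer in GC than genes in general. Low GC content near the start did not separate bound from unbound members.

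Promoter motifs were counted as letter matches on either strand in the same window, and a match is not a binding site. The core of Motif 1 (GGTCACAC), a motif of housekeeping promoters, was found in 18 of 87 member promoters (20.7%), beside 7.70% of all promoters. Of the bound members 3 of 10 had it and of the unbound 15 of 77 (19.5%). The DRE (TATCGATA) was found in 10.3% of member promoters, beside 9.36% of all. The forkhead words TGTTTAC and TGTTTAT were found in 20.7%, beside 21.2%. The TATA box (TATAAA) was found in 52.9%, beside 45.8%, and the Initiator core (TCAGT) in 35.6%, beside 51.5%. The Initiator letters were in 7 of the 10 bound members and 24 of the 77 unbound (31.2%), so the lower share of the members was that of the unbound ones. The E-box CACGTG was found in 4.60%, beside 4.20%, and the words TTACGTAA and TTACATAA, searched as the core of the NRG element that was described at nuclear genes for mitochondrial proteins in flies, in 2.30%, beside 2.60%. The NRF-1 word GCGCATGC and the Ets word CCGGAAGT had 0 matches among the 87, beside 1.05% and 0.380% of all promoters. The shares of members and of all promoters were thus farthest apart for the Motif 1 and Initiator letters, and within 1 percentage point of each other for the DRE, forkhead, E-box and NRG words.

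In the 101 bp at the summits of bound members, the forkhead words were found at 3 of 10 (ND-MWFE, ATPsynCF6 and COX7AL2), beside 7.40% of all promoter-proximal summits. The TATA word was found at 5 of 10, among them ND-ASHI and ND-SGDH, whose printed sequences hold it, beside 21.9%. The NRG words were found at 2 (Cyt-c1 and ND-MNLL), beside 1.38%, and the Initiator letters at 2 (COX7B and ND-ASHI), beside 16.3%. Motif 1 was found at none, beside 0.561%. The forkhead, TATA and NRG words are rich in A and T, and the member summits had a mean GC content of 31.0%, beside 34.0% for all promoter-proximal summits. The part of base composition in these shares was not tested.

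Some subunits of the same complexes have symbols outside the rule. In a list of 11 such genes 10 matched a symbol, 1 of which is also a member, and 4 were bound (40.0%), beside the 19.1% of all genes. Each was in all 3 replicate lists. Cyt-c-d, the second cytochrome c gene, known for its role in the male germline, had a signal of 4484 (rank 84), stronger than any member. It lies next to Cyt-c-p, the cytochrome c gene of other tissues. The gene blw, which encodes the alpha subunit of the ATP synthase, had a signal of 915, levy, a complex IV subunit gene, 486, and cype, also of complex IV, 324.

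Genes for the assembly of the complexes were bound in 4 of 12 matched cases (33.3%), and 20 further entries of that list matched no symbol in the annotation. CIA30, an assembly factor of complex I, had a signal of 3605 (rank 188), and Cox17, a copper chaperone for complex IV, 1362. Ttc19, linked to complex III, had 815 in 2 replicate lists, and Coa8, linked to complex IV, 324. As with the members, these lists were chosen with earlier results of these data known, and their small size limits their shares.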

How the data were processed

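CG32006-GFP binding was measured by ChIP-seq in 3 replicates. The authors deposited peak lists in dm6 with a signal value and a −log10 q for each peak, but neither aligner, caller, depth, signal scale nor the optimal list's cut-off is given in the sources used here. Each replicate list was called against a control, per the deposited notes, and the control reads were not analysed here. If the control is common to the replicates, their lists are not fully independent. The lists in dm3 were not used.

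Each summit was placed by adding the deposited offset to the peak start. In the optimal list 9 summits fell beyond their peak and were moved back to its final base. They were compared with protein-coding TSS of Ensembl release 115 (Python 3.11.15, pandas 2.3.3, numpy 2.4.6, scipy 1.17.1), and the placing of summits was tested on simulated peaks. Sequences came from the RefSeq Release 6 genome. Coordinates count from 1. With 1 group there was no test between conditions, and shares of all protein-coding genes stand beside those of the members. Named genes were all bound members and genes sharing their summits, the 3 members on each side of the distance limit, and up to 4 bound genes with the strongest promoter peaks from each other list. Unbound members in 1 or 2 replicate lists, genes with summits inside them or the most distant summits, and SdhD were named after their values were seen. The members, lists and motifs were chosen with earlier results of these data known.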

Additional observations from a re-analysis of the deposited data

How the results depend on the processing

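The count of 10 bound members ranged from 4 to 15 over the alternatives. It was 5 at 200 bp, 5 with the strongest 50% of optimal peaks, and 4 when the member's own TSS had to be nearest to the summit. Requiring support from both other replicates when 1 was left out gave 6 to 7, with 6 when replicate 3 was left out. All genes under these settings were at 11.1%, 12.9% and 15.6%, and at 15.1% to 16.3% with a replicate left out. A count of 5 of the 87 members is 5.75% (Wilson interval 2.48 to 12.8%) and a count of 4 is 4.60% (1.80 to 11.2%). The interval thus includes the share of all genes at 200 bp. It lies just below that share for the strongest 50% of peaks, and below it for the own TSS rule. With all rows of each replicate list, background regions included, 10 bound members had a region in 3 replicates in place of 6. With any 1 replicate left out the count was 7. The median signal was 664 at 200 bp, 664 at 1000 bp, and 190, 151 and 185 in the lists of replicates 1, 2 and 3, whose scales may differ. The cause of these shifts was not tested. The GC difference (-20.9 to -15.6 points) kept its direction and stayed within the replicate SD of 5.87 points of the main value. The count of bound members with a divergent partner was 8 to 9. The divergent partner, its alternatives and the summits left past the peak end (10 bound) were chosen after seeing the data. Counts for complexes III to V are of 1 to 3 genes and moved with many settings. No paired analysis was possible because the series has 1 group. A depth that is unknown limits any reading of absent peaks.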

Other observations

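Genes of other mitochondrial pathways were bound in varied shares, read beside the 19.1% of all protein-coding genes. In the TCA cycle 6 of 20 genes had a promoter peak (30.0%), led by Fum1 (signal 2677, the peak shared with ND-ASHI), Idh3g, a subunit gene of isocitrate dehydrogenase (2327), Idh (391) and kdn, the citrate synthase gene (323). Of the inner membrane carriers and porin 8 of 17 were bound (47.1%), led by sea, a citrate carrier gene (1987), Ucp4A, an uncoupling protein gene (1649), DPCoAC (627) and colt (601). The bound carriers and porin not named in that order had signals of 197 to 291, where the lowest of the optimal list was 197. Protein import had 5 of 27 bound (18.5%), with Hsc70-5, a mitochondrial Hsp70 gene (2209), Tom7 (1387), Tim10 (603) and Hsp60A (304) the strongest. Maintenance and transcription of mitochondrial DNA had 2 of 15 (13.3%), the protease gene Lon (4447) and mtSSB, which encodes the single-strand binding protein (305). All 3 replicate lists held 4 of the 6 bound TCA cycle genes and 4 of the 8 bound carriers and porin. They held 4 of the 5 bound import genes and 1 of the 2 for mitochondrial DNA.

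Of 15 genes listed as regulators of mitochondrial biogenesis or stress 8 were bound (53.3%), 6 of them in all 3 replicate lists. The strongest were Atf3, a bZIP factor gene (3819), M1BP, whose product binds Motif 1 (1940), ERR, the estrogen-related receptor gene (1465), and foxo, a forkhead factor gene of insulin signalling (1231). These lists are small and were chosen with earlier results known, and 36 entries over all lists of this kind matched no symbol in the annotation.

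The pattern of ND-42 and ND-24, present in replicates 1 and 3 and missing from replicate 2, was found at many genes. Over all protein-coding genes, 500 were in the lists of replicates 1 and 3 but not of replicate 2, and 425 of them had no promoter region among the 30000 of replicate 2. Of the 500, 212 (42.4%) had none in the pooled list either. In the lists of replicates 1 and 2 but not 3 there were 164 genes, 26 of them (15.9%) absent from the pooled list, and in those of replicates 2 and 3 but not 1 there were 117, with 16 absent (13.7%). Of the 2036 genes in all 3 lists 17 (0.835%) were absent from the pooled list.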
